A study of Mus musculus with 6 samples.

Results

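Histone protein genes were followed in double-positive (DP) thymocytes, the T cell precursors of the thymus that carry both CD4 and CD8, after loss of the histone deacetylase Hdac3. Members were the probe sets of an Affymetrix whole-transcript array annotated to a gene whose symbol starts with Hist1h, Hist2h, Hist3h, Hist4h, H2af, H3f or H1f. The annotation uses newer symbols, so the older ones were matched through gene identifiers, and newer names are given below. The rule gave 76 different probe sets of 28853 in the table, after 79 were reduced by counting identical rows once. By symbol alone, 56 of these were classed as replication-dependent (Hist symbols) and 20 as variant (H2af, H3f and H1f symbols). A single gene was annotated to 45 of them, and 31 carried several symbols, in most cases those of near-identical genes of the same class. Among the exceptions were a probe set joining an H1 and an H2B gene and another joining an H2A gene to a non-histone gene. Of the 93 RefSeq genes that fit the rule, 83 were on a probe set and 44 had one of their own.

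The KO group held 3 arrays of DP thymocytes labelled Hdac3 KO, and the WT group held 3 arrays labelled wild type. All mice were C57BL/6 and aged 3 weeks, no treatment was given, and RNA was pooled from 2 mice of each genotype. The strain name joins LCK to Hdac3. The sources used here do not give the construct behind that name or the cells in which the gene is deleted. Which mice went into which array is not stated, so p-values here reflect the spread among the 6 arrays alone, and some of it may be technical.

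Nucleosomes wrap DNA around a core of histones H2A, H2B, H3 and H4, and linker histone H1 binds where the DNA enters and leaves. Most of this protein comes from clustered, intronless replication-dependent genes that are transcribed in S phase under the coactivator NPAT and whose mRNAs end in a stem-loop bound by SLBP in place of a poly(A) tail. Variant histones come mostly from single genes with polyadenylated mRNA made through the cell cycle, and they mark particular places: H2A.Z sits at promoters, macroH2A in silent chromatin, and H2A.X is phosphorylated around DNA breaks. DP thymocytes arise from a burst of division and then largely leave the cycle.

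Hdac3, the targeted gene, had log2 signals of 8.28, 8.32 and 8.32 on the KO arrays, against 9.40, 9.42 and 9.44 on the WT arrays. The difference, KO minus WT here and throughout, was -1.12 (SE 0.08, limma adjusted p = 3.55e-04), and the groups did not overlap. Of 7 measured DP thymocyte markers, 0 passed the test in limma and 0 had an unadjusted p under 0.05. Their mean log2 level was 11.04 to 11.15 on the KO arrays and 11.06 to 11.19 on the WT arrays. KO array 2 stood apart in the neutrophil markers, with a mean log2 level over 12 genes of 5.96, against 4.48 and 4.50 on the other KO arrays and 4.31 to 4.46 on the WT arrays. None of the 12 passed the test in limma, 2 had an unadjusted p under 0.05 (25.2% of all tested probe sets did), and their median difference was 0.44. Of 8 markers of double-negative (DN) thymocytes, the stage before DP, 1 rose and 2 fell: Il2ra (CD25) by a difference of 2.28 (limma adjusted p = 0.00326), Il7r by -1.19 (adjusted p = 0.00560) and Cd44 by -0.66 (adjusted p = 0.00340). These calls are 37.5% of the DN list, and 5.79% of all tested probe sets passed. The part of these marker differences in the histone results was not tested. The interquartile range of the log2 signals was narrower on the KO arrays (3.06 to 3.25) than on the WT arrays (3.29 to 3.49). In bulk RNA, fewer cells of a type and less RNA per cell cannot be told apart.

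Few histone genes differed between the genotypes. Of the 76 probe sets, 1 was higher and 3 were lower in KO thymocytes at a limma adjusted p under 0.05 (Benjamini-Hochberg over 23410 probe sets with a gene symbol). That is 5.26% of the members, and 5.79% of all tested probe sets passed (1.75% higher and 4.04% lower), so the share itself is not a result about histones. Lower were H2bc4 and H2bc21, both encoding H2B, and H2ax, encoding the variant H2A.X. Higher was H4c3, encoding H4. The groups did not overlap for 15 probe sets or 19.7% of the members, against 30.0% of all tested probe sets. KO lay above WT for 7 of the 15, with 13.5% of all tested probe sets doing so, and below WT for 8, with 16.5%. Differences of all histone probe sets ran from -0.84 to 0.73, with a median of 0.05, and the median over all tested probe sets was 0.02.

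**Figure D1:**
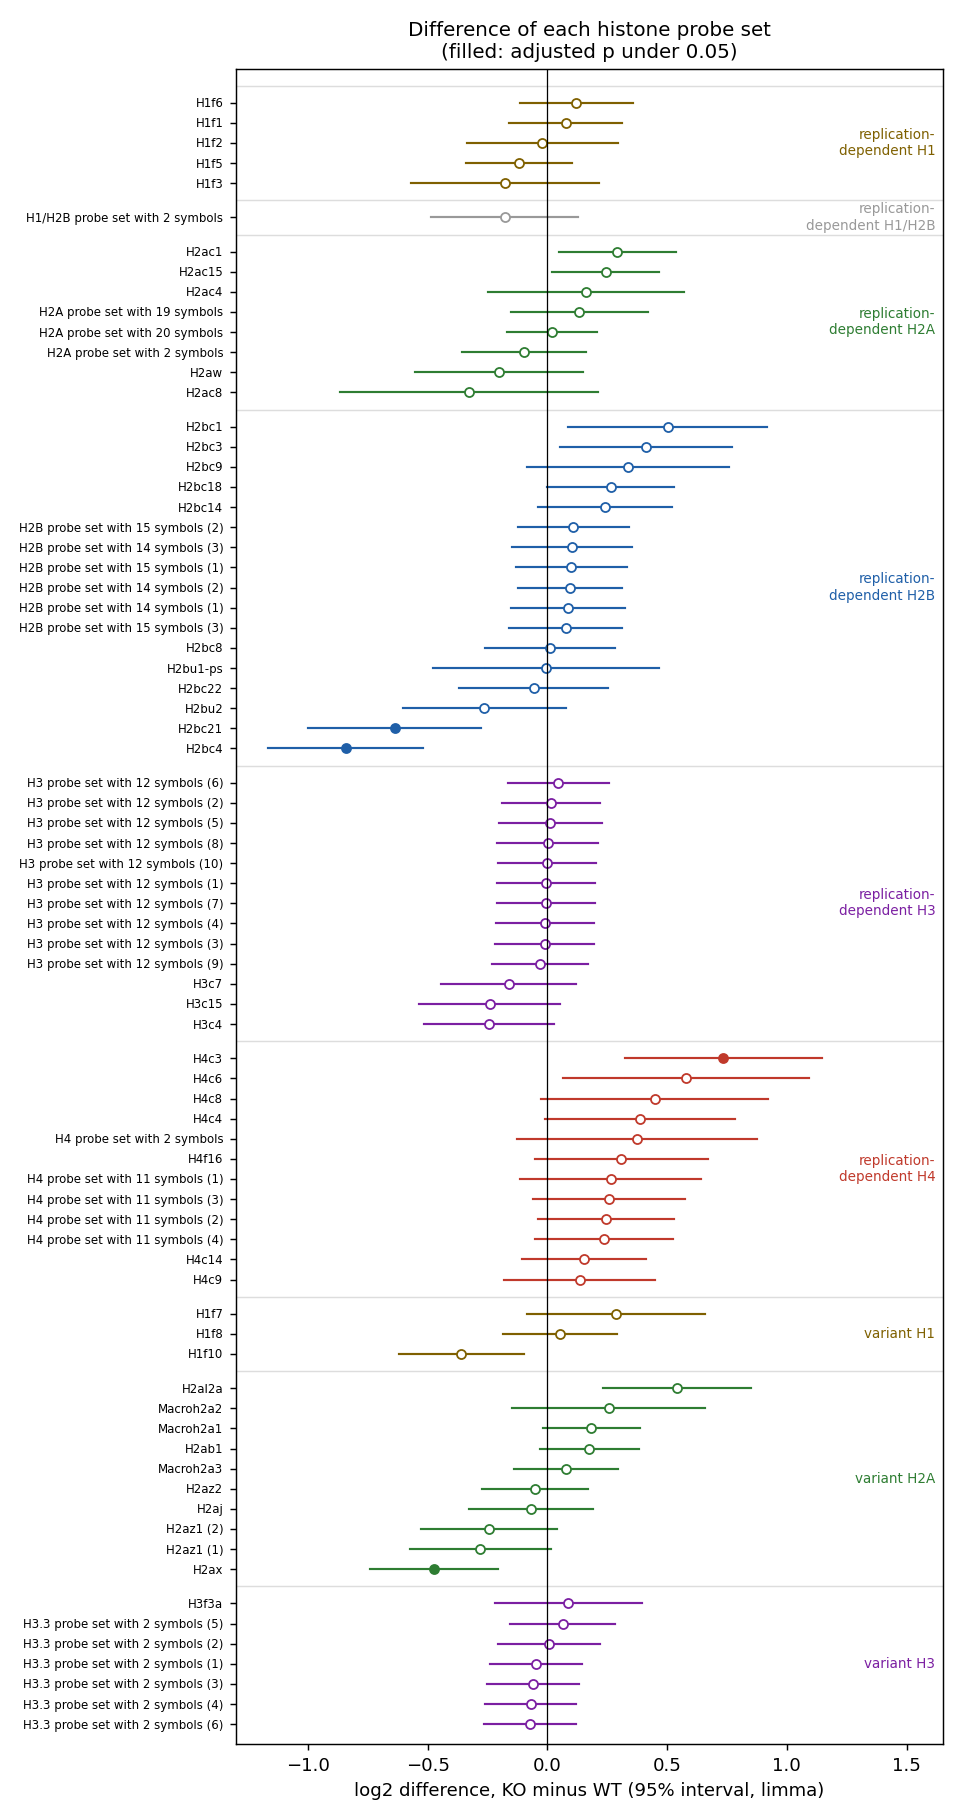
Difference between KO and WT thymocytes for each of the 76 histone probe sets on the log2 scale (x axis), with 95% intervals from limma, grouped by histone class (y axis); filled points passed the test. Most intervals cross 0, the 12 H4 probe sets all lie to the right of 0, and the filled points are H2bc4 (-0.84), H2bc21 (-0.64), H2ax (-0.48) and H4c3 (0.73).

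Both falls among the members classed as replication-dependent were in H2B genes. That class rests on the Hist symbol alone, and when in the cell cycle these genes are transcribed was not examined. H2bc4 (older name Hist1h2bc), a gene of the Hist1 cluster on chromosome 13, had log2 signals of 5.51, 5.00 and 5.13 on the KO arrays, against 5.90, 6.24 and 6.04 on the WT arrays. Every KO array was below every WT array. The means were 5.22 ± 0.27 in KO and 6.06 ± 0.17 in WT thymocytes (SD, n = 3 each), and the difference was -0.84 (SE 0.14, 95% interval -1.17 to -0.52, limma adjusted p = 0.0119), a 1.79-fold lower signal. Without KO array 3 the adjusted p was 0.0529 and without WT array 2 it was 0.0503, while the difference stayed between -0.99 and -0.74 with any 1 array left out. The probe set is dim: its mean over 6 arrays was 5.64, below the median of 5.77 over tested probe sets, and its signal over background is unknown.

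H2bc21 (Hist2h2be), which in the mouse lies in the Hist2 cluster on chromosome 3, had log2 signals of 6.89, 6.20 and 6.31 on the KO arrays and 7.12, 7.13 and 7.06 on the WT arrays. All KO arrays were below all WT arrays, with KO array 1 close to the WT arrays and the 3 WT arrays nearly equal. The means were 6.47 ± 0.37 in KO and 7.10 ± 0.04 in WT thymocytes (SD, n = 3 each), and the difference was -0.64 (SE 0.16, limma adjusted p = 0.0497), a 1.56-fold lower signal. This result was at the threshold: with 1 array left out it passed only without KO array 1 (adjusted p = 0.00696), and the adjusted p reached 0.155 without KO array 2. H2bc4 and H2bc21 were both lowest on KO array 2, the array with the raised neutrophil markers. Without that array their differences were -0.74 (adjusted p = 0.0451) and -0.51.

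The other H2B probe sets did not pass the test, and several of them lay on the positive side. Of all 17, 12 had a positive difference, as did 53.1% of all tested probe sets, and the median was 0.10. The 12 are not independent readings, since 6 of them carry 14 or 15 largely shared symbols. Of the 11 probe sets with a single gene, 6 were positive. The 17 include H2bu1-ps, which is annotated as a transcribed pseudogene. H2bc3 had log2 signals of 10.68, 10.19 and 10.39 on the KO arrays and 9.99, 10.30 and 9.74 on the WT arrays, a difference of 0.41 (SE 0.16, adjusted p = 0.151), with the groups overlapping through WT array 2. H2bc1, a testis H2B, had a difference of 0.50 (SE 0.19, adjusted p = 0.135), and H2bc9, H2bc18 and H2bc14 had differences of 0.34, 0.26 and 0.24. The 6 probe sets annotated to 14 or 15 H2B symbols each read many Hist1 H2B genes, and not H2bc21 or H2bc18. Their differences lay close together at 0.08 to 0.11. The brightest of them, with 14 and with 15 symbols, had differences of 0.10 (SE 0.10) and 0.08 (SE 0.11). Against these the single-gene probe sets spread from -0.84 to 0.50, with a median of 0.01 over 11.

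**Figure D2:**
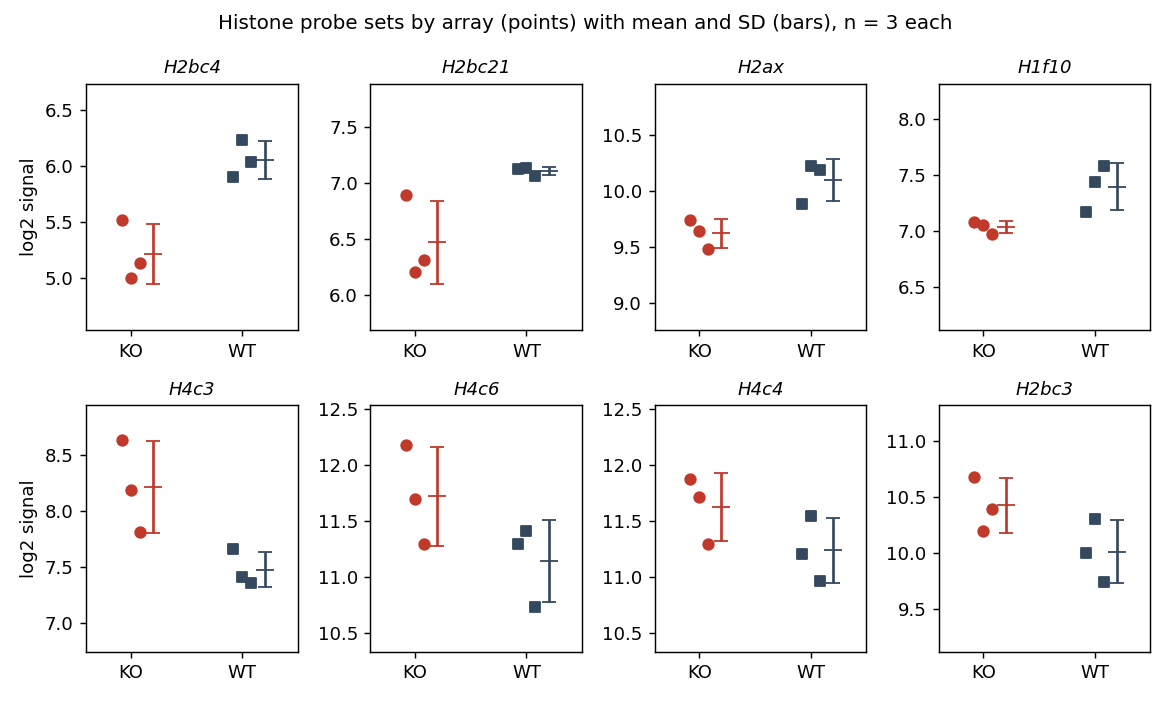
Log2 signal (y axis) of 8 histone probe sets on each KO and WT array (points), with the mean and SD at their side (n = 3 each). KO points lie below all WT points for H2bc4, H2bc21, H2ax and H1f10 and above them for H4c3, and the groups overlap for H4c6, H4c4 and H2bc3.

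H4 was the replication-dependent class in which every probe set had the same sign. All 12 differences were positive, from 0.14 to 0.73 with a median of 0.29, and 53.1% of all tested probe sets had a positive difference. One of the 12 passed the test, and 2 had an unadjusted p under 0.05 and a positive difference, as did 11.4% of all tested probe sets, so that count is not a result about H4. The 12 are not independent readings, since 4 share the same 11 symbols and H4 coding sequences are near-identical. By array the class ordered the samples unevenly: KO array 1 was the highest for 11 of 12 probe sets and WT array 3 the lowest for 10 of 12. KO array 2 was above every WT array for 9 probe sets and KO array 3 for 1. The median became 0.16 without KO array 1 and 0.41 without KO array 3, and all 12 differences stayed positive under each of the 16 alternatives run.

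H4c3 (Hist1h4c) had log2 signals of 8.63, 8.19 and 7.81 on the KO arrays, against 7.66, 7.41 and 7.36 on the WT arrays. All KO arrays were above all WT arrays, and KO array 3 was the nearest to them. The means were 8.21 ± 0.41 in KO and 7.48 ± 0.16 in WT thymocytes (SD, n = 3 each), and the difference was 0.73 (SE 0.18, 95% interval 0.32 to 1.15, limma adjusted p = 0.0486), a 1.66-fold higher signal. With 1 array left out it ran from 0.52 to 0.93 and passed only without KO array 3. H4c6, also in the Hist1 cluster, had 12.17, 11.69 and 11.29 on the KO arrays and 11.29, 11.41 and 10.72 on the WT arrays, a difference of 0.58 (SE 0.23, adjusted p = 0.156). Here KO array 3 lay within the WT range. H4c8, H4c4 and H4f16 had differences of 0.45, 0.39 and 0.31, and H4c14 and H4c9 had 0.15 and 0.14, none past the test. The 4 probe sets with 11 symbols had differences of 0.24 to 0.26, and the brightest had 13.08, 12.79 and 12.51 on the KO arrays and 12.63, 12.74 and 12.22 on the WT arrays, with overlap.

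The promoters of H4 and H2B genes carry different known control elements, so the windows of 4 H4 genes and 2 H2B genes with positive differences are shown. The promoter set used here held no window for H2bc4, H2bc21 and H2ax, the genes called lower, so theirs are neither shown nor counted. Each window shown is the 250 bases before the RefSeq start in GRCm38.p6, 5′ to 3′ on the gene's strand. Capitals mark exact matches, on either strand, to 4 motifs: GTCCGC, the core of the element bound by the H4 activator HINFP, ATTTGCAT, the octamer bound by OCT1 at H2B promoters, CCAAT and TATAAA. The HINFP core was picked with the H4 values known, and in H4c4 it runs directly into a CCAAT match on the other strand.
H4c3, chr13:23698459-23698708, minus strand: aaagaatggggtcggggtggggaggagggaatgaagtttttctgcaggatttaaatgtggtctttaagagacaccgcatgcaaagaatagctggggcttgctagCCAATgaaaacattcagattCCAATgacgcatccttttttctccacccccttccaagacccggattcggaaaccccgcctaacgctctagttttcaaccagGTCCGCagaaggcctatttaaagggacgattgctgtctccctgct
H4c6, chr13:23551669-23551918, minus strand: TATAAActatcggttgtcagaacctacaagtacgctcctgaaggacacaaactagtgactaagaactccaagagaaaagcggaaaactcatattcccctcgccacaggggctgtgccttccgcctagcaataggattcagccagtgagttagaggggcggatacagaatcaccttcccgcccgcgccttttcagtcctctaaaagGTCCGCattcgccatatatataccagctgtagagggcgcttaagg
H4c4, chr13:23581318-23581567, plus strand: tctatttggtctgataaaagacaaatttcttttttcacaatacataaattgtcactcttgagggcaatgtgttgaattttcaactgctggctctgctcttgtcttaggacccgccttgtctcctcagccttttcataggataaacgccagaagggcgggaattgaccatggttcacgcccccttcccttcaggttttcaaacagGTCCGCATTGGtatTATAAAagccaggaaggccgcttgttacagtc
H4c8, chr13:23530794-23531043, plus strand: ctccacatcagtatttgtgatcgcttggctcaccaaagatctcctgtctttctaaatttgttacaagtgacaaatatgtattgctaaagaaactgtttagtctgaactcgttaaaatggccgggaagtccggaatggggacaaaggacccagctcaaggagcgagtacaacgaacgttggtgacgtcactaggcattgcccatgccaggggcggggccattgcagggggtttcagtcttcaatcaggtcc
H2bc3, chr13:23746484-23746733, plus strand: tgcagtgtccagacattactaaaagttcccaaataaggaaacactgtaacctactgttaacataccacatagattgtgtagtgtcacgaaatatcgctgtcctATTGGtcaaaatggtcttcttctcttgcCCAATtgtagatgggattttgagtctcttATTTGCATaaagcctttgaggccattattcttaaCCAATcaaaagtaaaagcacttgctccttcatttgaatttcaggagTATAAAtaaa
H2bc18, chr3:96269450-96269699, plus strand: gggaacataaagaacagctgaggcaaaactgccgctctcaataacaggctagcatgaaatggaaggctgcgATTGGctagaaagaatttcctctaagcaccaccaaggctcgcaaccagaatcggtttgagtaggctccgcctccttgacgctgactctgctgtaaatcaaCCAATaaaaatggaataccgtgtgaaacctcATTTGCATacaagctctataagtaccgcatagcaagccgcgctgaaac

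The HINFP core began 45 bases before the start in H4c3 and H4c6 and 46 bases before it in H4c4, and the H4c8 window held none of the 4 motifs. The H4c8 window ends in gtcc, the first letters of the HINFP core. Bases after the start were not searched, so a core crossing the start would be missed in any window. Within the windows the HINFP core was present in 9 of 12 H4 windows or 75%, in 1 of 17 H2B windows, and in 7.42% of all 32851 promoter windows. The octamer was in 7 of 17 H2B windows (41.2%), in 0 of 12 H4 windows and in 1.60% of all windows, and it began 90 bases before the start in H2bc3 and 48 in H2bc18. CCAAT was in 17 of 17 H2B windows, 3 of 12 H4 windows and 33.8% of all windows, and TATAAA in 8 of 17, 6 of 12 and 12.4%. In the H2A windows the octamer and the HINFP core were each in 7 of 18. In the 6 H1 windows both were in 0, and in the 10 H3 windows the octamer was in 0 and the HINFP core in 1. These are matches of letters and say nothing about binding.

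Linker histone H1 showed no called difference. H1f5, the brightest H1 probe set, had log2 signals of 12.23, 12.19 and 12.40 on the KO arrays and 12.30, 12.47 and 12.42 on the WT arrays, with overlapping groups and a difference of -0.12 (95% interval -0.34 to 0.10). H1f1 differed by 0.08 (95% interval -0.16 to 0.31) and H1f2 by -0.02. H1f3 had the largest difference of the class, -0.18 (SE 0.17), at a dim mean signal, and it turned to 0.03 without WT array 1. The testis form H1f6 differed by 0.12. The 5 H1 probe sets had a median of -0.02, and 1 further probe set joining an H1 and an H2B gene differed by -0.18.

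None of the 8 replication-dependent H2A probe sets passed the test, and 2 had an unadjusted p under 0.05, a share near the 25.2% of all tested probe sets. Their median difference was 0.08, and the range was -0.33 to 0.29. H2ac1, a testis H2A, had log2 signals of 7.49, 7.64 and 7.36 on the KO arrays and 7.06, 7.30 and 7.25 on the WT arrays, and H2ac15 had 11.36, 11.16 and 11.29 on the KO arrays and 11.05, 10.91 and 11.13 on the WT arrays. For both genes every KO array was above every WT array, with differences of 0.29 (adjusted p = 0.139) and 0.24 (adjusted p = 0.169). H2ac8 had the largest difference of the class, -0.33 (SE 0.24), through WT array 1 alone, which read 4.62 when the other 5 arrays read 3.41 to 3.85. The probe sets with 20 and 19 symbols, the brightest of the class, differed by 0.02 (95% interval -0.17 to 0.21) and 0.13 (95% interval -0.15 to 0.42). Both are mixed: they also carry the symbols of the variant H2ax and of an H3 gene, and the one with 20 symbols also that of the variant H2aj.

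Most H3 probe sets had differences close to 0. The 10 probe sets annotated to the same 12 H3 symbols, with log2 signals of 12.39 to 13.02, had differences between -0.03 and 0.05. The brightest had 12.99, 12.86 and 12.93 on the KO arrays and 12.89, 13.02 and 12.90 on the WT arrays, and its 95% interval was -0.21 to 0.19. The next brightest differed by -0.01 (SE 0.09). Array signals reached 13.98 at most, and how far signals this high still follow the amount of RNA was not tested. The 3 single-gene probe sets H3c4, H3c15 and H3c7 had differences of -0.24, -0.24 and -0.16, and none passed the test. H3c15 and H3c7 were dim, and H3c4, with a mean signal of 5.89, lay just above the dim limit of 5.77. H3c4 had 5.60, 5.96 and 5.75 on the KO arrays and 6.04, 5.85 and 6.15 on the WT arrays, with overlap.

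**Figure D3:**
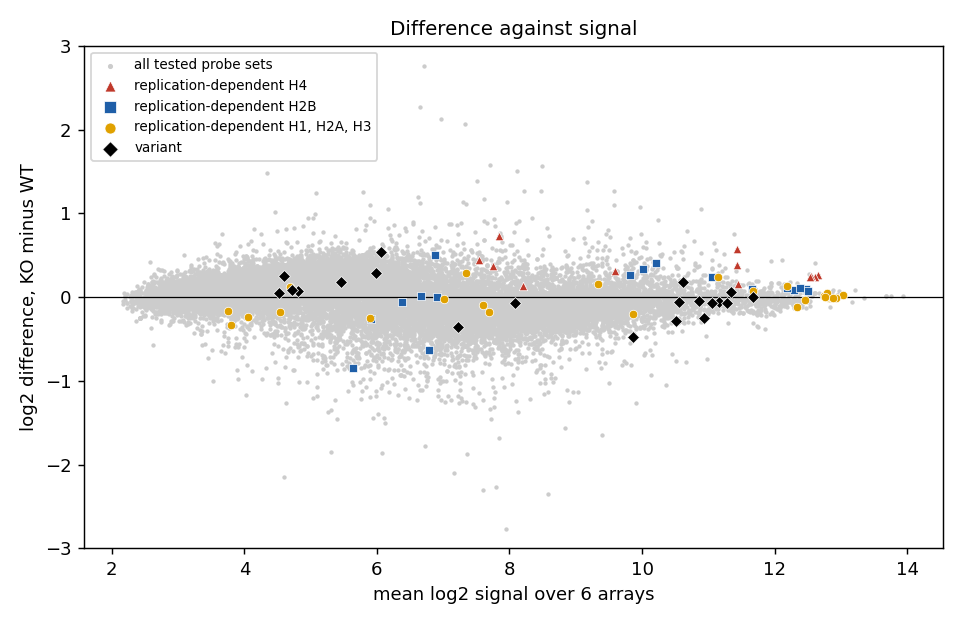
Log2 difference between KO and WT (y axis) against the mean log2 signal over 6 arrays (x axis) for all tested probe sets (grey) and the histone probe sets (coloured by class). The H3 probe sets with 12 symbols lie between -0.03 and 0.05, all H4 points lie above 0, and H2bc4 (-0.84) lies at a dim signal of 5.64.

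Among the variants, H2ax was lower in KO thymocytes. Its log2 signals were 9.74, 9.64 and 9.48 on the KO arrays, against 9.88, 10.22 and 10.18 on the WT arrays. Every KO array was below every WT array, and WT array 1 was the nearest to them. The means were 9.62 ± 0.13 in KO and 10.10 ± 0.19 in WT thymocytes (SD, n = 3 each), with a difference of -0.48 (SE 0.12, limma adjusted p = 0.0493), a 1.39-fold lower signal. With 1 array left out the difference ran from -0.58 to -0.40 and passed only without WT array 1. WT array 1 also had the lowest S phase level of the 6 arrays, with a median deviation of -0.19 from the 6-array mean, and WT array 2 the highest, at 0.29, against 0.00, 0.03 and -0.10 on the KO arrays. The part of this spread in the H2ax result was not tested.

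The H2A.Z genes overlapped between the genotypes. H2az1 was measured by 2 probe sets, with differences of -0.28 (SE 0.13, adjusted p = 0.220) and -0.24 (SE 0.13, adjusted p = 0.259), both highest on WT array 2. H2az2 differed by -0.05 (95% interval -0.27 to 0.17) and H2aj by -0.07. Macroh2a1 had log2 signals of 10.74, 10.63 and 10.75 on the KO arrays and 10.56, 10.55 and 10.45 on the WT arrays, without overlap, and its difference of 0.18 (95% interval -0.02 to 0.39, adjusted p = 0.237) did not pass. Macroh2a2 and Macroh2a3, the latter annotated as a transcribed pseudogene, were dim, with differences of 0.26 and 0.08.

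H2al2a, a testis H2A variant, came closest to the threshold without passing it. It had 6.19, 6.43 and 6.39 on the KO arrays and 5.91, 5.50 and 5.98 on the WT arrays, with no overlap and a difference of 0.54 (SE 0.14, adjusted p = 0.0501), which passed under 6 of 16 alternatives. H2ab1, another testis variant, differed by 0.18 at a dim signal. H1f10, a linker variant, had 7.08, 7.06 and 6.97 on the KO arrays and 7.17, 7.44 and 7.58 on the WT arrays. All KO arrays were below all WT arrays, and the difference was -0.36 (SE 0.12, adjusted p = 0.0982). The germ cell linker histones H1f7 and H1f8 differed by 0.29 and 0.05, with overlap.

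For H3.3, the replacement H3 that is deposited outside replication, 6 probe sets were annotated to H3f3a or H3f3b together with a predicted gene. Their differences lay between -0.07 and 0.06, with standard errors of 0.09 to 0.10. The 4 annotated to H3f3a share the same symbols and are not independent readings. All 4 had every KO array below every WT array (16.5% of all tested probe sets did), and both annotated to H3f3b overlapped, with differences of 0.01 and 0.06. An H3f3a example is a probe set with 11.21, 11.28 and 11.24 on the KO arrays and 11.34, 11.32 and 11.29 on the WT arrays, a difference of -0.07 (95% interval -0.26 to 0.12). The H3f3a probe set without a second symbol was dim and differed by 0.09.

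Replication-dependent and variant histones did not stand apart by count. Of 56 replication-dependent probe sets, 1 was higher and 2 were lower (5.36%), with a median difference of 0.08 and 36 positive signs. Of 20 variant probe sets, 0 were higher and 1 was lower (5.00%), with a median of -0.02 and 10 positive signs. The replication-dependent median was 0.018 without KO array 1, 0.033 without WT array 3 and 0.12 without WT array 2, and the variant median lay between -0.031 and 0.0061 with any 1 array left out. The unadjusted p was under 0.05 for 7 higher and 2 lower of the replication-dependent probe sets and for 1 higher and 2 lower of the variant ones. Over all tested probe sets 11.4% were higher and 13.8% lower by that measure, so the counts of higher members were near or under the background. The difference between both kinds was not tested, because members share sequence and are no replicates of a condition.

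**Figure D4:**
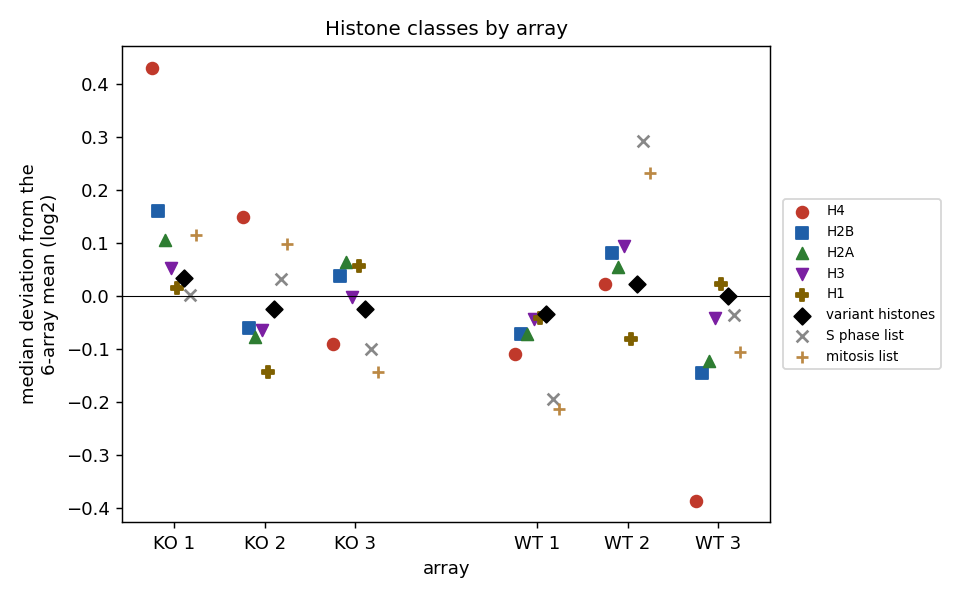
Median deviation of each histone class, and of the S phase and mitosis lists, from its mean over 6 arrays (y axis, log2) on each KO and WT array (x axis). H4 runs from 0.43 on KO array 1 to -0.39 on WT array 3, and the S phase and mitosis lists are highest on WT array 2, at 0.29 and 0.23.

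The machinery that makes and places histones was set beside the genes themselves. The histone supply list covers transcription and 3′ end formation of replication-dependent mRNA. Of 19 measured genes of 20, 0 passed the test in limma (5.79% of all tested probe sets did). An unadjusted p under 0.05 was found for 1 gene, against 25.2% of all tested probe sets. That gene was Lsm10, a subunit of the U7 particle that cuts histone mRNA, with a difference of 0.39 (SE 0.13, adjusted p = 0.107), and next came Lsm1, of the complex that starts decay of histone mRNA, with -0.26 (adjusted p = 0.199). Others chosen after their values were seen were Npat at -0.07, the stem-loop binder Slbp at 0.13, and Hinfp at 0.02. Of 31 measured genes for histone chaperones and deposition, of 33 listed, 24 had a negative difference and the median was -0.13, against 46.9% negative and a median of 0.02 over all tested probe sets. The chromatin remodeller Srcap, which exchanges H2A for H2A.Z, fell, with a difference of -0.47 (SE 0.09, limma adjusted p = 0.0179). No other gene of that list passed the test, a share of 3.23% against 5.79% of all tested probe sets. With 1 array left out Srcap passed only without KO array 1 or without WT array 3.

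Cell cycle genes were set beside the H4 class. Of 29 measured S phase genes, 1 passed (3.45%, against 5.79% of all tested probe sets). It was Gins1 of the replicative helicase, with a difference of -0.49 (SE 0.11, limma adjusted p = 0.0324), and the list's median was -0.08. With 1 array left out Gins1 passed only without WT array 1 or WT array 3, and with quantile or cyclic loess normalization no gene of the list passed. Of 19 mitosis genes, 0 passed in limma and 1 had an unadjusted p under 0.05, against 25.2% of all tested probe sets. This was Aurka, with a difference of 0.33 (limma adjusted p = 0.144). Cdc20, with the next smallest p, differed by -0.30 (adjusted p = 0.232). Median deviations from the 6-array mean were 0.43, 0.15 and -0.09 for H4 on the KO arrays and -0.11, 0.02 and -0.39 on the WT arrays. The mitosis list had 0.12, 0.10 and -0.14 on the KO arrays and -0.21, 0.23 and -0.11 on the WT arrays. WT array 2 was the highest for the mitosis list and KO array 1 for H4.

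The non-histone genes that lie among the Hist1 genes on chromosome 13 had no called member. Of 41 measured of 50, 0 passed in limma and 2 had an unadjusted p under 0.05, both higher: Btn2a2, a butyrophilin (0.31, adjusted p = 0.084), and Vmn1r195, a vomeronasal receptor (0.26, adjusted p = 0.139). Of all tested probe sets 11.4% were higher at that unadjusted threshold, and 5.79% passed the test. The median difference of these neighbours was 0.01. Of the 41, 38 were dim, with a mean signal under 5.77, both named genes among them, and whether they rise above background is unknown.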

How the data were processed

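Values were the log2 probe set signals deposited by the authors, 1 column for each of 6 arrays, and their log2 scale was read from the range of the values. RNA was column-purified and labelled as sense-strand target, per the labels' protocols. The sources used here do not give the background correction, the normalization, the probe summary or a genome build. Detection calls were not used here, so signal over background is unknown, and the number of arrays limits the precision (median SE of a difference 0.11).

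Probe sets were named through the platform annotation. The rule's older symbols were matched by Entrez identifier to RefSeq symbols and synonyms (GRCm38.p6). By newer symbols alone 18 probe sets would have matched. Identical rows were counted once as members. Groups and replicate numbers came from the sample titles.

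The 23410 probe sets with a gene symbol were tested with limma 3.58.1 (lmFit and eBayes, R 4.3.3) on 2 group means, two-sided, with Benjamini-Hochberg adjustment over all of them and a threshold of 0.05. An exact test of 3 against 3 arrays cannot go under p = 0.1 and was not run. On simulated data with 200 changed probe sets of 23410, in 5 draws, the fit recovered 19.2% of differences of 0.5 and 95.4% of differences of 1, and 5.48% of its calls were false. The simulated probe sets were independent and fewer were changed than the 1355 called in the data, so these rates need not hold there.

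The members, gene lists, tests and alternatives were chosen with earlier results of these data known. Named were Hdac3, every called or variant member, and in each replication-dependent class the 2 probe sets with the highest mean and the 1 with the largest difference. Of each related list the called members, or the 2 with the smallest p, were named. Other named members were chosen after their values were seen, as were the genes whose promoters are shown. No gene was named from a probe set with several symbols, except H3f3a and H3f3b, whose second symbol is a predicted gene. Lists of markers of other cells were also counted, and 5.79% of all tested probe sets passed. Of 5 erythroid markers 1 was higher (Klf1, 0.44), and all 5 differences were positive, with a median of 0.22. Of 6 thymic epithelium markers 1 was lower (Epcam, -0.37), while 5 differences were positive and the list's median was 0.16. Of 9 macrophage and 7 B cell markers 0 passed in limma. An unadjusted p under 0.05 was found for 1 and 2 of them, against 25.2% of all tested probe sets.

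Alternatives were quantile and cyclic loess normalization, median centring, leaving out dim probe sets (mean under 5.77), testing all probe sets, identical rows kept once, a robust prior with an intensity trend, array weights, a replicate block and leaving out each array. Members with 1 symbol only, and quantile normalization combined with leaving out dim probe sets, were added after the data were seen. Same-numbered KO and WT arrays had correlations of 0.25, -0.07 and -0.03 between their deviations from the group means. With 3 arrays in each group these values can neither show nor exclude pairing, and the labels do not state it. Promoter windows came from RefSeq (GRCm38.p6).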

Additional observations from a re-analysis of the deposited data

How the results depend on the processing

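Of 560 values of the 36 named probe sets over 16 alternatives, 523 kept their direction and side of the threshold, 29 lost the call, 7 gained it and 1 changed sign: H1f3, at 0.028 without WT array 1 (-0.33 to 0.028 with 1 array left out). A change of sign was counted only where 1 of the 2 differences exceeded its SE. Calls at the threshold moved most. The number of histone probe sets higher in KO (1) was 0 with median centring or with all probe sets tested, 2 with dim probe sets left out, identical rows kept once, a trend with robust prior, or quantile normalization plus that filter, and 0 to 1 with 1 array left out (H4c3 without KO array 3, H2al2a without WT array 3). The number lower (3) was 1 with quantile normalization, cyclic loess or all probe sets tested, 0 with quantile normalization and dim probe sets left out (limma; the p-values of H2bc21 and H2ax passed 0.05 and H2bc4 was left out as dim), and 0 to 2 with 1 array left out, with 0 without KO array 3 or WT array 2. Whether arrays of the same number are paired is not known. With the replicate block 2 histone probe sets were higher and 2 lower, and H2ax was not called (limma adjusted p = 0.0688). H4c3 was also lost with median centring (0.66, adjusted p = 0.0593) and array weights, H2ax with quantile normalization (-0.44, adjusted p = 0.0807) and cyclic loess (-0.40, adjusted p = 0.108), and H2bc21 with quantile normalization (-0.58, adjusted p = 0.0962). H1f10 gained a call with median centring (-0.44, adjusted p = 0.0426). Over all tested probe sets 1355 calls became 2285 with array weights and 474 to 1946 with 1 array left out, the lowest without KO array 2 and the highest without WT array 3. Median centring moved the median of all tested probe sets from 0.02 to -0.06, so it lowers every difference. The variant median (-0.02) was -0.10 with median centring, -0.060 with dim probe sets left out and 0.065 for members with 1 symbol. The histone supply list had 1 call with quantile normalization, with or without dim probe sets. Chaperones had 2 with median centring, dim probe sets left out, a trend with robust prior or array weights, and 0 to 1 with 1 array left out. S phase genes had 0 with quantile normalization or cyclic loess and 0 to 1 with 1 array left out, with 1 only without WT array 1 or WT array 3. Hist1 neighbours had 0 to 1 with 1 array left out, with 1 only without WT array 3. The causes were not tested.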

Other observations

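Histone genes outside the rule were measured as well. Cenpa, the centromeric H3, had log2 signals of 9.28, 9.15 and 9.05 on the KO arrays and 9.03, 9.23 and 9.41 on the WT arrays, with overlap and a difference of -0.07 (SE 0.12, limma adjusted p = 0.757). The testis gene H2ap differed by 0.21 (SE 0.12, adjusted p = 0.299) at a dim mean signal of 4.68, and H2bl1 by 0.12 (SE 0.12, adjusted p = 0.537). A dim probe set with several H2al2 symbols (mean signal 4.19) differed by 0.37 (SE 0.10, limma adjusted p = 0.0611). Its KO arrays all lay above its WT arrays, as for 13.5% of all tested probe sets. The probe sets with several H2al1 symbols, which share most of them, had differences from -0.27 to -0.06, and none passed the test.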
